A study of Mus musculus and Rattus norvegicus with 12 samples.

Results

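The genes described here are 10 transcriptional targets of the tumour suppressor p53, namely Cdkn1a, Mdm2, Trp53inp1, Ccng1, Phlda3, Sesn1, Bbc3, Bax, Eda2r and Gadd45a. They were taken by symbol, with case ignored, from the 2 deposited count tables. All 10 had a row among the 54087 symbols of the mouse heart table. In the rat table of 28909 symbols 9 had a row, Trp53inp1 under its rat symbol, and Bbc3 had none. All 10 mouse and all 9 rat rows passed the filter on low counts.

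RNA was sequenced in 12 libraries in 4 groups of 3. Mouse hearts carried floxed Jmjd4 alleles (Jmjd4f/f), either alone (flox) or together with MCM, a Cre recombinase under the Myh6 promoter of cardiomyocytes that tamoxifen switches on (cKO). Both groups are labelled as given tamoxifen, and heart apex was taken at day 14 after it. The labels give no age for the mice. The other system was primary culture of ventricular cardiomyocytes of newborn rats (NRVCs), from 1-day-old Sprague-Dawley rats of wild-type genotype, given a control siRNA (siNC) or an siRNA against Jmjd4 (siJmjd4) for 48 h. The labels do not say whether replicates of the NRVCs came from separate isolations, so p-values there measure the spread between these samples, which may be technical. Flox hearts carry no Cre, so the effects of the active recombinase and of Jmjd4 loss cannot be told apart in the hearts. The NRVCs received no recombinase.

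When DNA is broken, the kinases ATM and ATR stabilise p53, which then turns on genes that halt the cell cycle, repair damage or start cell death. Mdm2, itself a p53 target, is the ubiquitin ligase that removes p53 and closes the loop. Cre can cut genomic DNA at sequences that resemble its loxP site, and active Cre in cardiomyocytes has been tied to a DNA damage response, which is why p53 targets are followed in designs where the controls carry no Cre. Each of these genes also answers to other regulators, so its RNA is not a readout of p53 alone.

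The binding sequence of p53 is a pair of half-sites of 10 bases each. The consensus of the p53 half-site reads the same on both strands, and it was searched over the 250 bases before each transcription start in the RefSeq promoter table (GRCm38.p6), which held 13 start sites of 9 of the 10 genes. An exact half-site stood in 6 of the 9 genes and in 6 of the 13 windows, against 7.13% of all 32851 windows. Pairs were searched with a C and a G at the core positions. They had at most 3 mismatches in their 20 bases and a spacer of at most 1 base. Such pairs stood in 5 genes and in 5 of the 13 windows, against 2.28% of all windows. These 5 stretches are shown because genes with higher and genes with lower values in cKO hearts both hold such a pair, with the pair in capitals and each read 5′ to 3′ along its gene.
Cdkn1a, chr17:29090908-29090967, plus strand: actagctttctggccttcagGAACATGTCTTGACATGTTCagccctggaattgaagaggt
Ccng1, chr11:40755442-40755501, minus strand: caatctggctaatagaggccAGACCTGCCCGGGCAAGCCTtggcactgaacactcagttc
Bax, chr7:45467059-45467119, minus strand: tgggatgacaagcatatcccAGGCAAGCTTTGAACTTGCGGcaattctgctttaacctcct
Sesn1, chr10:41887246-41887305, plus strand: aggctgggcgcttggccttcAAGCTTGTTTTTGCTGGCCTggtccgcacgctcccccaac
Bbc3, chr7:16309466-16309525, plus strand: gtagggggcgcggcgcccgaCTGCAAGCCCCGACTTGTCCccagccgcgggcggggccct
The Cdkn1a and Ccng1 pairs had 1 mismatch each, that of Bax 2, and those of Sesn1 and Bbc3 3 each. The first 2 stretches lie outside any gene of GENCODE M21. Those of Sesn1 and Bbc3 lie in introns of their own genes, before an inner start, and that of Bax lies in an intron of the overlapping gene Gm45808. No pair was found in the windows of Phlda3, Mdm2, Gadd45a or Eda2r, and exact single half-sites stood in those of Mdm2 and Gadd45a. A match is a run of letters in this window only, and binding was not measured.

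The libraries held 57174654 to 82187009 counts each. Flox replicate 3 and siNC replicate 3 stood apart. Genes of the mitochondrial genome took 41.7% of the counts in flox replicate 3 against 14.2% to 24.1% in the other hearts, and 1485 tested genes were at 0 there (125 to 503 elsewhere). In siNC replicate 3, 461 tested genes were at 0 (78 to 137 in the other NRVC libraries). Both held fewer reads of long transcripts than the others of their group, with a Spearman rho across genes of -0.65 and -0.50 between the ratio to the other libraries of the group and transcript length. The same measure was -0.57 in cKO replicate 2 and -0.39 in siJmjd4 replicate 1. Fold changes of the p53 targets are given from all libraries and, where a call or value turns on it, without the control library that stood apart. Jmjd4 itself was at 8.04 to 19.0 CPM (counts scaled to the TMM-adjusted library total) in flox and at 4.92 to 9.63 in cKO hearts, with overlap. In NRVCs it was at 0.982 to 4.40 CPM with siNC against 3.43 to 3.58 CPM with siJmjd4, so these libraries show no lower Jmjd4 and every direction in the NRVCs rests on the labels.

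Between cKO and flox hearts the p53 targets did not move as 1 group. Phlda3 was 3.32-fold higher in cKO hearts and Bbc3 1.89-fold higher, while Ccng1 was 3.05-fold lower and Sesn1 2.08-fold lower. Cdkn1a and Mdm2, the most widely read markers of p53 activity, had log2 fold changes of -0.24 and -0.16, both within their error. With all 6 libraries 0 of the 10 genes passed edgeR's quasi-likelihood test at an adjusted p under 0.05, where 0.508% of the 18094 tested genes did, and 4 had an unadjusted p under 0.05, where 15% of tested genes did. On the same libraries DESeq2's Wald test called 1 higher and 2 lower (9.69% of its genes), and limma voom with quality weights called 3 higher and 2 lower (21.3%). Without flox replicate 3, 1 of the 10 was called higher and 2 lower, where 4.26% and 2.93% of 19094 genes were.

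The groups of 3 did not overlap in CPM for 5 of the 10 genes (Phlda3, Bbc3, Ccng1, Sesn1 and Gadd45a), against 26.1% of all tested genes. The median log2 fold change of the 10 was -0.20, against 0.00034 over all tested genes. It was 0.02 without flox replicate 3 and 0.45 with scaling to total counts alone, a scaling that moved the median of all genes to 0.54. These are tissue libraries, so fewer cells of a type and less RNA per cell cannot be told apart.

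**Figure D1:**
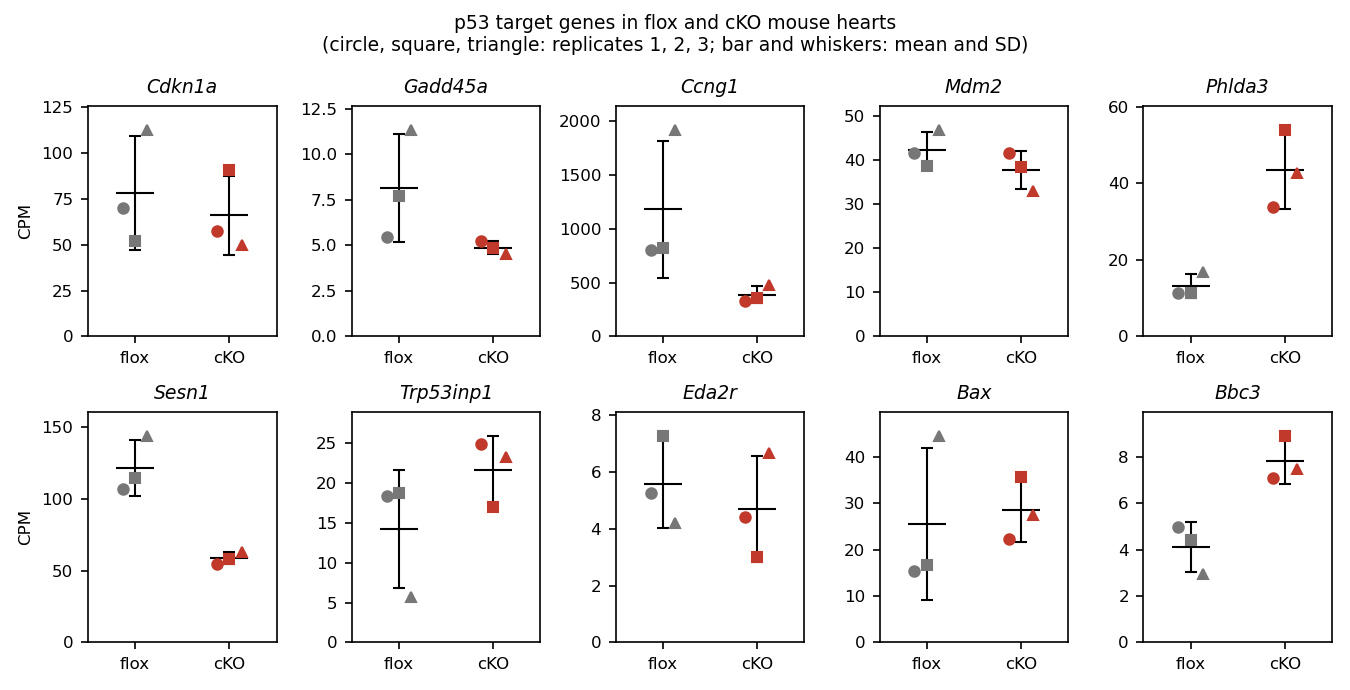
Each panel plots CPM (linear axis from 0) of 1 p53 target in the 3 flox (grey) and 3 cKO (red) hearts, with the mean and SD in black. Phlda3 and Bbc3 lie higher and Ccng1, Sesn1 and Gadd45a lower in every cKO heart, and flox replicate 3 (grey triangle) is the highest flox heart for Cdkn1a, Bax, Ccng1, Gadd45a, Phlda3, Sesn1 and Mdm2.

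Mdm2, the feedback inhibitor, was at 41.5, 38.5 and 46.7 CPM in flox hearts (in the order of replicates 1, 2 and 3, as throughout) and at 41.6, 38.4 and 33.0 CPM in cKO hearts. These values overlapped, the log2 fold change was -0.16 (95% interval -0.82 to 0.49, edgeR adjusted p = 0.851), and it turned to 0.44 with scaling to total counts alone.

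Cdkn1a encodes p21, the inhibitor of cyclin-dependent kinases through which p53 halts the cell cycle. It was at 69.9, 52.0 and 113 CPM in flox and at 57.4, 90.7 and 50.1 CPM in cKO hearts. The ranges overlapped almost wholly, and each group had 1 library well above its other 2. Its log2 fold change was -0.24 (95% interval -1.23 to 0.74, adjusted p = 0.853), 0.12 without flox replicate 3 and 0.46 with scaling to total counts alone.

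Ccng1 encodes cyclin G1, which binds a phosphatase and acts on Mdm2. It was at 804, 825 and 1914 CPM in flox hearts and at 325, 361 and 475 CPM in cKO hearts. Every cKO heart lay below every flox heart, and flox replicate 3 was 2.35-fold above the mean of the other 2. The mean was 1181 ± 635 CPM in flox and 387 ± 78.5 CPM in cKO (SD, n = 3), with a log2 fold change of -1.61 (SE 0.49) and an edgeR adjusted p of 0.195. With flox replicate 3 left out it fell (log2 fold change -1.07, SE 0.24, adjusted p = 0.0448, and 0.00753 to 0.59 over the 15 other settings). The sign was negative in all of these settings.

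Gadd45a encodes a small stress protein that binds PCNA and cyclin-dependent kinase 1. It was at 5.45, 7.69 and 11.3 CPM in flox and at 5.25, 4.87 and 4.53 CPM in cKO hearts. The groups did not overlap, by a narrow gap between flox replicate 1 and cKO replicate 1. The log2 fold change of -0.74 (SE 0.35) did not pass (edgeR adjusted p = 0.381), and it was -0.03 with scaling to total counts alone. Its paralogs had other values. Gadd45g was at 5.41, 13.2 and 14.2 CPM in flox and at 38.4, 71.7 and 33.7 CPM in cKO hearts, with a log2 fold change of 2.13 (SE 0.51). Gadd45b, at 4.95, 3.22 and 6.15 CPM in flox and at 10.2, 17.1 and 9.34 CPM in cKO hearts, had one of 1.36 (SE 0.39). Both rose in the fit without flox replicate 3 (log2 fold changes of 2.36 and 1.58) and neither passed with all 6 libraries. Without flox replicate 3, 2 of 13 tested relatives of the 10 genes were called higher, where 4.26% of all genes were.

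Phlda3 encodes a small protein with a pleckstrin homology domain that keeps the kinase AKT from the membrane. It was at 11.2, 11.3 and 16.7 CPM in flox hearts and at 33.8, 53.9 and 42.7 CPM in cKO hearts. The lowest cKO heart was above the highest flox heart, with means of 13.1 ± 3.14 and 43.4 ± 10.1 CPM (SD, n = 3). Its log2 fold change of 1.73 (SE 0.34) missed the threshold with all libraries (edgeR adjusted p = 0.0823). Left without flox replicate 3, Phlda3 rose 3.86-fold (log2 fold change 1.95, SE 0.26, adjusted p = 0.0108, and 0.000309 to 0.393 over the 15 other settings). Its log2 fold change lay between 1.55 and 2.38 in all of these settings. With the correction for transcript length on all 6 libraries it was 1.88 and was the 1 gene of the 10 that passed, where 6.41% of genes did. Phlda3 lies on chr1:135766119-135769136 (GRCm38, plus strand) in 2 exons, and no other annotated gene overlaps it.

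Sesn1 encodes sestrin 1, an antioxidant protein that restrains mTORC1. It was at 107, 114 and 144 CPM in flox and at 54.7, 58.2 and 62.9 CPM in cKO hearts. The groups were well apart, and the cKO libraries lay close together. Its log2 fold change was -1.05 (SE 0.30, edgeR adjusted p = 0.167). In the fit without flox replicate 3, Sesn1 fell 1.89-fold (log2 fold change -0.92, SE 0.19, adjusted p = 0.0337, and 0.00201 to 0.637 over the 15 other settings). The sign held throughout, with -0.42 under scaling to total counts alone. The locus 9930024M15Rik lies inside Sesn1 on the same strand.

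Trp53inp1 encodes a nuclear protein that promotes p53 phosphorylation and autophagy. It was at 18.4, 18.7 and 5.70 CPM in flox and at 24.9, 17.0 and 23.3 CPM in cKO hearts. The groups overlapped, and flox replicate 3 was at 0.307 times the mean of the other 2 flox hearts. Its log2 fold change was 0.60 (95% interval -0.54 to 1.75, edgeR adjusted p = 0.634).

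Bax encodes the effector that opens the outer mitochondrial membrane in apoptosis. It was at 15.4, 16.6 and 44.5 CPM in flox and at 22.3, 35.8 and 27.4 CPM in cKO hearts. Flox replicate 3 was the highest of all 6 hearts, and the other 2 flox hearts were below every cKO heart. It had a log2 fold change of 0.16 (SE 0.49, edgeR adjusted p = 0.926) with all libraries and 0.83 (SE 0.25, 1.78-fold, adjusted p = 0.096) without flox replicate 3, which did not pass. The adjusted p was 0.0378 to 0.992 over the 15 other settings, with a call in limma voom with quality weights (log2 fold change 0.68) and without both flox replicate 3 and cKO replicate 2 (0.62), a fit in which 19.1% of all genes were called. Bax has the shortest transcript of the 10 genes, of 867 bases, and Gm45808 overlaps its start on the same strand, so counts there may mix both.

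Bbc3 encodes PUMA, the BH3-only protein that releases Bax and Bak. It was at 4.99, 4.41 and 2.94 CPM in flox and at 7.07, 8.89 and 7.45 CPM in cKO hearts. Every cKO heart was above every flox heart. The log2 fold change of 0.92 (SE 0.32) did not pass (edgeR adjusted p = 0.244), and without flox replicate 3 it was 0.73 (adjusted p = 0.111, and 0.0311 to 0.585 over the 15 other settings). Of these settings limma voom with quality weights was the 1 that called it.

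Eda2r encodes the receptor of ectodysplasin A2, a member of the TNF receptor family. It was at 5.25, 7.26 and 4.21 CPM in flox and at 4.42, 3.00 and 6.68 CPM in cKO hearts. The groups overlapped (log2 fold change -0.25, 95% interval -1.20 to 0.71, adjusted p = 0.844, and 0.27 with scaling to total counts alone). Eda, which encodes its ligand among other ectodysplasin forms, had a log2 fold change of 0.79 (SE 0.41).

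**Figure D2:**
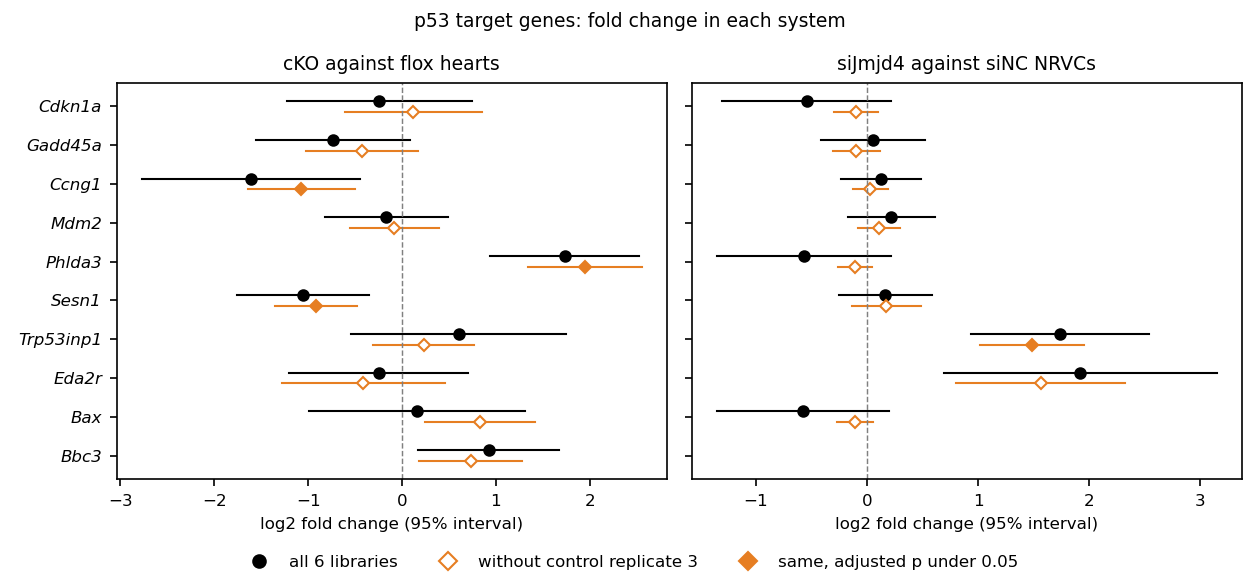
Points are log2 fold changes of each gene with 95% intervals, for cKO against flox hearts on the left and siJmjd4 against siNC NRVCs on the right. Black circles use all 6 libraries and orange diamonds leave out control replicate 3, filled where the adjusted p was under 0.05 (Phlda3, Ccng1 and Sesn1 in the hearts and Trp53inp1 in the NRVCs). Bbc3 has no NRVC value.

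Levels between genes were compared per length, as CPM per kilobase of the longest transcript. In flox hearts Ccng1 stood far above the rest at a mean of 336 (229 to 545 over the 3 libraries). Cdkn1a (37.6), Sesn1 (32.0) and Bax (29.4) followed and overlapped one another. Mdm2 was at 13.4, above Phlda3 at 9.12 without overlap, while Phlda3 overlapped Gadd45a (6.67). Trp53inp1 (2.64) and Bbc3 (2.27) overlapped. Eda2r had the lowest mean at 1.17 (0.885 to 1.53), overlapping Trp53inp1 (1.06 to 3.46). In cKO hearts Phlda3, at 30.3 (23.5 to 37.5), was in the range of Bax (32.9) and Cdkn1a (31.8), and Sesn1 was at 15.4.

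Beyond the 10 genes, 21 of 40 other p53 targets had a positive and 19 a negative log2 fold change in the hearts, while 36 were positive with scaling to total counts alone. The median was 0.28, against 0.00034 over all genes, and 0.76 against 0.54 with that scaling. With all 6 libraries edgeR called 0 of the 40, while 11 had an unadjusted p under 0.05 (15% of all genes). DESeq2 called 5 higher and 2 lower (9.69% of all genes in either direction), and limma voom called 10 higher and 4 lower (21.3%). Without flox replicate 3, 3 were called higher and 1 lower (4.26% and 2.93% of all genes). Gdf15, a stress-induced cytokine of the TGF-beta family, was at 1.17, 0.947 and 1.16 CPM in flox and at 5.37, 7.17 and 15.6 CPM in cKO hearts, and it rose in that fit (log2 fold change 3.14). Gtse1 (2.32) and Psrc1 (2.60), which both also act in mitosis, rose with it. Fbxw7, the substrate receptor of a ubiquitin ligase, fell, at 52.4, 58.2 and 49.5 CPM in flox and 22.2, 14.0 and 15.5 CPM in cKO hearts (log2 fold change -1.68).

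For genes that sense and repair broken DNA the medians lay near that of all genes. Of all genes tested with all libraries edgeR called 0.508%, 15% had an unadjusted p under 0.05, DESeq2 called 9.69% and limma voom 21.3%. Of 23 tested genes of damage sensing and signalling edgeR called 0, 1 had an unadjusted p under 0.05, and DESeq2 and limma voom each called 0. Their median log2 fold change was 0.02. The smallest p was that of Brca1, a repair scaffold present at under 3 CPM in every heart (0.766, 0.203 and 2.57 CPM in cKO against 0.165, 0.363 and 0.113 CPM in flox). Of 21 tested genes of strand break repair edgeR called 0, 1 had an unadjusted p under 0.05, DESeq2 and limma voom called 0, and the median was -0.04. Among 17 tested genes of p53 and its control the count was 0 in edgeR, at an unadjusted p under 0.05, in DESeq2 and in limma voom, with a median of 0.10 and 11 positive. Leaving out flox replicate 3 turned that median to -0.22, with 3 positive, 14 negative, 1 at an unadjusted p under 0.05 and 0 called, against 23.1% of all genes at an unadjusted p under 0.05 in that fit. Scaled to total counts alone, these 3 lists had medians of 0.58, 0.56 and 0.50, beside 0.54 for all genes. Damage itself, such as phosphorylated histone H2AX, was not measured by these counts.

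A further list held cell cycle genes known as targets of the DREAM repressor complex, which acts downstream of p53 and p21. Of 28 tested genes 27 had a positive log2 fold change in cKO hearts, with a median of 1.43, and 1.99 with scaling to total counts alone. With all libraries edgeR called 0, and 11 had an unadjusted p under 0.05, against 15% of all genes. DESeq2 called 7 higher and limma voom 12, against 9.69% and 21.3% of all genes called in either direction. Without flox replicate 3 edgeR again called 0, and 12 had an unadjusted p under 0.05, against 23.1%. Summed fibroblast markers were at 2984 to 7604 CPM in cKO against 949 to 1347 CPM in flox hearts, and summed macrophage markers at 983 to 1368 against 478 to 985 CPM, and their part in this list was not tested. Tyms, thymidylate synthase, was at 2.12, 2.23 and 2.74 CPM in flox and at 5.45, 4.93 and 12.1 CPM in cKO hearts. Mcm6, of the replicative helicase, was at 8.32, 7.39 and 4.09 CPM in flox and at 12.9, 14.7 and 21.4 CPM in cKO hearts. For both genes no cKO heart was as low as a flox heart.

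Among 15 other genes of the BCL2 family edgeR called 0 with all libraries, and 3 had an unadjusted p under 0.05. DESeq2 called 2 higher and limma voom 4, 8 were positive, and the median was 0.09. For this list and those that follow, the shares of all genes were 0.508% in edgeR and 15% at an unadjusted p under 0.05. They were 9.69% in DESeq2 and 21.3% in limma voom, each over calls in either direction. Without flox replicate 3 the median of the BCL2 family was 0.48, with 13 of 15 positive. In that fit 6 had an unadjusted p under 0.05, against 23.1% of all genes, and 2 were called higher, against 4.26%. The anti-apoptotic Bcl2 was at 8.8, 8.59 and 2.32 CPM in flox and at 24.0, 16.7 and 24.4 CPM in cKO hearts. The pro-apoptotic Bid was at 1.21, 0.921 and 1.58 CPM in flox and at 3.00, 4.49 and 3.13 CPM in cKO hearts. Both rose in the fit without flox replicate 3 (log2 fold changes of 1.32 and 1.73), so members of either kind were higher. Of 7 other inhibitors of cyclin-dependent kinases edgeR called 0, 2 had an unadjusted p under 0.05, DESeq2 called 1 higher and limma voom 2, and Cdkn2b (p15) had the smallest p, with a log2 fold change of 2.27 (SE 0.59) at 0.254 to 0.458 CPM in flox and 0.818 to 2.62 CPM in cKO hearts. Of 13 tested relatives of the 10 genes edgeR called 0, 2 had an unadjusted p under 0.05, and DESeq2 and limma voom each called 2 higher. Without flox replicate 3 edgeR called 2 of these relatives higher, against 4.26% of all genes. In that fit 4 had an unadjusted p under 0.05, against 23.1%.

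**Figure D3:**
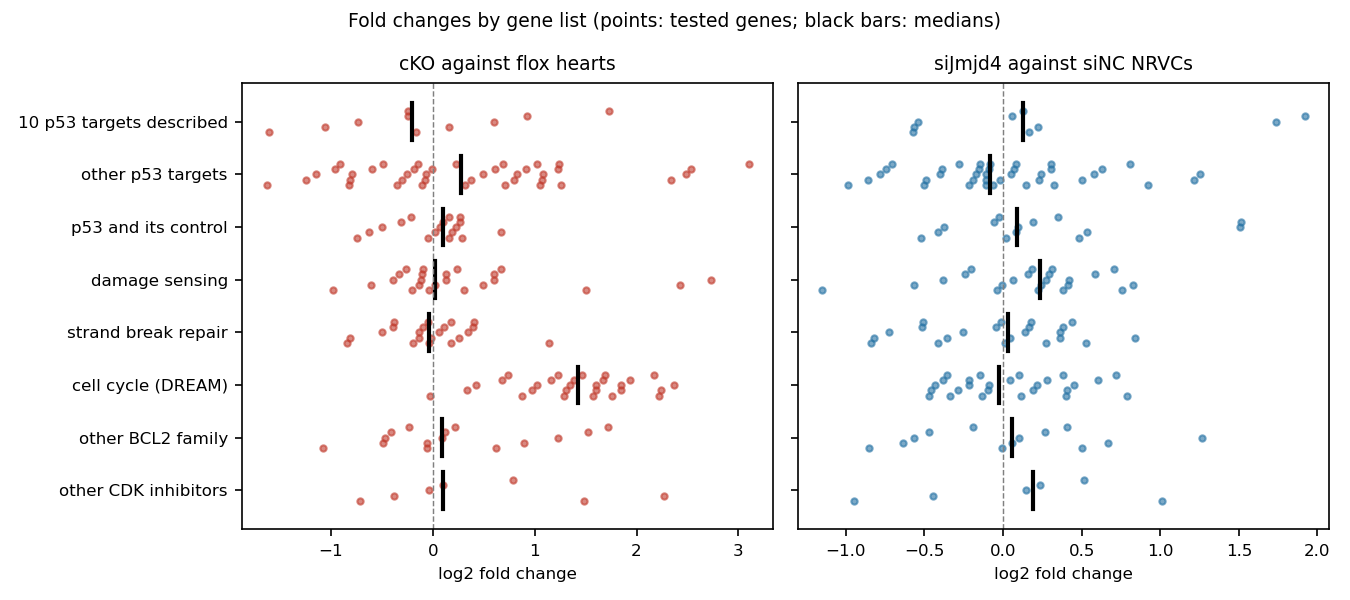
Each point is the log2 fold change of 1 tested gene in a list, for the hearts on the left and the NRVCs on the right, and black bars are medians. In the hearts the cell cycle list sits to the right of 0 with a median of 1.43, while the lists of damage sensing and strand break repair centre near 0, at 0.02 and -0.04.

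Summed markers of fibroblasts, of mural cells, and of lymphocytes and neutrophils were higher in every cKO heart than in any flox heart. Those of cardiomyocytes were lower in every cKO heart than in any flox heart. Those of macrophages and endothelial cells overlapped between the groups. Of all tested genes edgeR called 0.508%, 15% had an unadjusted p under 0.05, DESeq2 called 9.69% and limma voom 21.3%, in either direction. Without flox replicate 3 edgeR called 4.26% of genes higher. For macrophages, with the sums given above, 11 of 12 markers had a positive log2 fold change, with Ccr2 called in edgeR. DESeq2 called 4 of them higher, limma voom 10 higher and 1 lower, and edgeR without flox replicate 3 called 9 higher. For fibroblasts, 9 of 10 were positive and 0 were called in edgeR (6 at an unadjusted p under 0.05, 5 in DESeq2, 7 in limma voom). Summed over 10 lymphocyte and neutrophil markers the level was 5.20 to 6.72 CPM in flox against 9.57 to 11.7 CPM in cKO hearts, with 6 of 10 positive and 0 called in edgeR (6 at an unadjusted p under 0.05, 4 higher and 1 lower in DESeq2, 5 and 2 in limma voom). Over 8 mural markers it was 2241 to 3115 against 4437 to 6635 CPM, with 5 of 8 positive and Cnn1 called. With flox replicate 3 left out, 2 of 8 were positive (median -0.47, against 0.06 with all libraries) and 2 were called higher. Des, one of the mural markers, is also a cardiomyocyte gene and held most of their sum. Over 8 endothelial markers the level was 458 to 1242 against 805 to 952 CPM, with 3 of 8 positive. Over 8 cardiomyocyte markers it was 47459 to 49419 against 30439 to 36337 CPM, with 1 of 8 positive. In edgeR 0 were called (2 at an unadjusted p under 0.05, 2 lower in DESeq2, 3 lower in limma voom). Leaving out flox replicate 3 gave 3 of 8 positive (median -0.92, against -0.60 with all libraries). In that fit 1 was called lower, where 2.93% of all genes were. The labelled tissue showed its defining markers in every heart. No marker was at 0 in all hearts. The part of these markers in the values of the p53 targets was not tested.

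MCM carries part of an oestrogen receptor. Whether its reads were counted under Esr1, the gene of oestrogen receptor alpha, was not tested. Esr1 was at 2.21, 1.76 and 0.508 CPM in flox hearts and at 1066, 824 and 474 CPM in cKO hearts. Phlda3 was at 33.8, 53.9 and 42.7 CPM and Bbc3 at 7.07, 8.89 and 7.45 CPM in the same 3 cKO hearts. In the cKO heart with most Esr1 reads, Phlda3, Bbc3, Ccng1, Sesn1 and Bax were lowest among the 3. Mdm2, Gadd45a and Trp53inp1 were highest in that heart, and Cdkn1a and Eda2r lay between the other cKO hearts. With 3 hearts no relation can be tested.

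In the NRVCs, Trp53inp1 and Eda2r stood out among the p53 targets, 3.33-fold and 3.78-fold higher in siJmjd4-labelled libraries. With all 6 libraries edgeR called 0 of the 9 genes, where 0.00645% of 15497 tested genes were called, and 2 had an unadjusted p under 0.05, where 8.71% of tested genes did. DESeq2 and limma voom each called 2, Trp53inp1 and Eda2r, where they called 1.09% and 7.41% of genes. The fit without siNC replicate 3 and siJmjd4 replicate 1 also called both, where 15.8% of genes were. Without siNC replicate 3, 1 was called higher and 0 lower, where 0.487% and 0.0823% of genes were. The groups did not overlap for 3 of the 9 (Trp53inp1, Eda2r and Bax), against 40.2% of all tested genes.

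**Figure D4:**
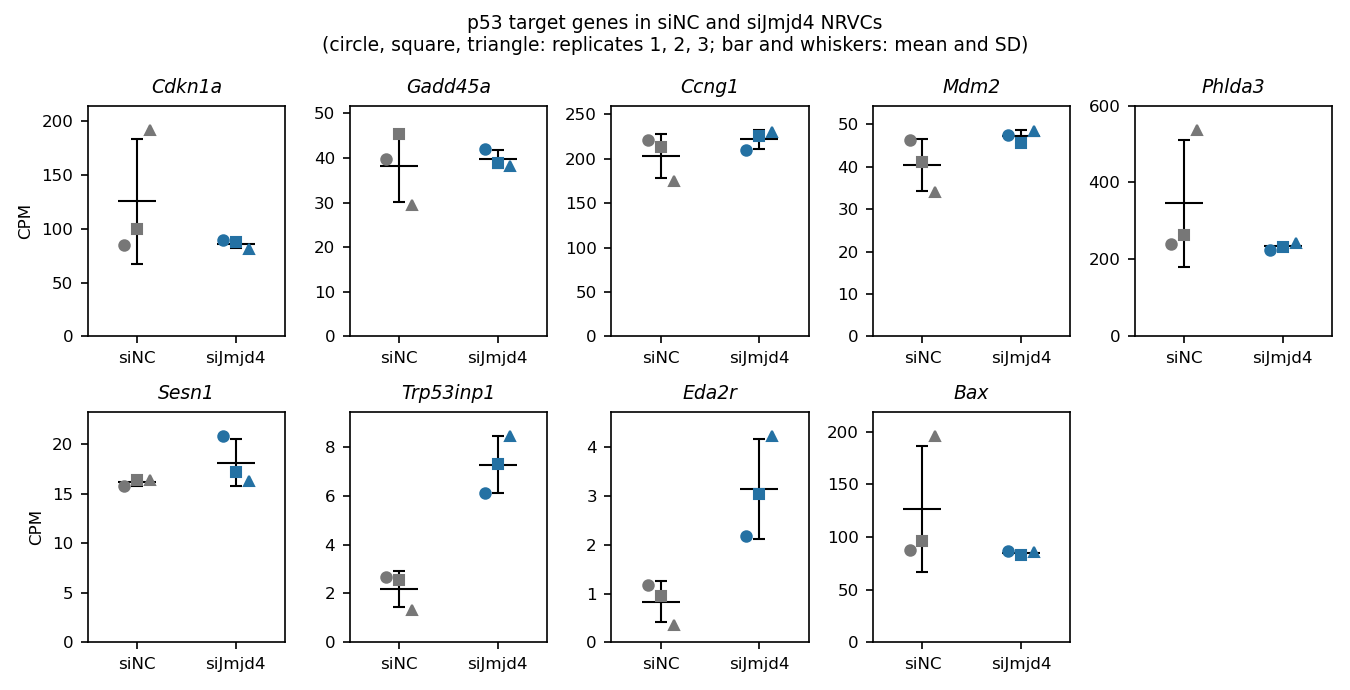
Each panel plots CPM (linear axis from 0) of 1 p53 target in the 3 siNC (grey) and 3 siJmjd4 (blue) NRVC libraries, with the mean and SD in black. Trp53inp1 and Eda2r lie higher in every library labelled siJmjd4, and siNC replicate 3 (grey triangle) sits far above the other 5 libraries for Cdkn1a, Phlda3 and Bax.

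Trp53inp1 was at 2.66, 2.53 and 1.34 CPM in siNC and at 6.09, 7.28 and 8.41 CPM in siJmjd4-labelled libraries. The lowest of the latter was more than 2-fold above the highest siNC library. The means were 2.18 ± 0.728 and 7.26 ± 1.16 CPM (SD, n = 3), with a log2 fold change of 1.74 (SE 0.33) and an edgeR adjusted p of 0.379. Without siNC replicate 3 it rose 2.80-fold (log2 fold change 1.48, SE 0.21, adjusted p = 0.0359, and 0.000604 to 0.669 over the 14 other settings).

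Eda2r was at 1.17, 0.957 and 0.359 CPM in siNC and at 2.18, 3.04 and 4.22 CPM in siJmjd4-labelled libraries, from 19 to 303 counts per library. The groups did not overlap. Its log2 fold change was 1.92 (SE 0.51, edgeR adjusted p = 0.379), and 1.56 without siNC replicate 3 (adjusted p = 0.0608, and 0.00719 to 0.669 over the 14 other settings), so the difference did not pass in either of the 2 fits. Both genes have long transcripts, of 5404 and 4752 bases in the mouse annotation, and both were low in siNC replicate 3, at 0.516 and 0.337 times the mean of the other 2 siNC libraries. The differences were as described without that library.

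The other 7 genes had log2 fold changes between -0.57 and 0.22. Cdkn1a was at 84.8, 99.6 and 191 CPM in siNC and at 89.7, 87.2 and 81.1 CPM in siJmjd4-labelled libraries. Phlda3 was at 240, 263 and 536 CPM in siNC and at 226, 233 and 243 CPM in siJmjd4-labelled libraries. Bax was at 87.7, 95.9 and 196 CPM in siNC and at 86.3, 83.0 and 85.4 CPM in siJmjd4-labelled libraries. In each of these 3 genes siNC replicate 3 was more than 2-fold above the mean of the other siNC libraries, and the rest lay close together.

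For Cdkn1a the log2 fold change was -0.54 with all libraries and -0.10 (95% interval -0.30 to 0.10) without siNC replicate 3. For Phlda3 it was -0.56 and then -0.10 (-0.25 to 0.05), and for Bax -0.57 and then -0.11 (-0.27 to 0.05). Mdm2 had a log2 fold change of 0.22 and then 0.11 (-0.08 to 0.30), Ccng1 of 0.13 and then 0.03 (-0.12 to 0.19), Sesn1 of 0.16 and then 0.18 (-0.14 to 0.49), and Gadd45a of 0.06 and then -0.10 (-0.31 to 0.12). Without that library the intervals of these 7 genes thus stayed within 0.49 on the log2 scale of no change. With all 6 libraries each of these intervals was wider, and they reached from -1.35 (Bax) to 0.61 (Mdm2).

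Within the NRVCs levels were again compared per length. Per kilobase of the mouse transcript, Phlda3 was highest in siNC libraries at a mean of 241 (167 to 373), overlapping Bax at 146 (101 to 226). Cdkn1a (60.2) and Ccng1 (57.8) overlapped, Gadd45a was at 31.2, Mdm2 at 12.9 and Sesn1 at 4.24, and Trp53inp1 (0.403) and Eda2r (0.175) were lowest. The tables were scaled separately and the rat transcripts may differ in length, so levels are not compared across species.

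Of the 38 other p53 targets tested in the NRVCs edgeR called 0 and DESeq2 0, against 0.00645% and 1.09% of all genes. An unadjusted p under 0.05 was found for 3, against 8.71% of all genes. With limma voom 4 were called higher, against 7.41% of all genes in either direction. The median log2 fold change was -0.08, and 0.01 with scaling to total counts alone. Rrm2b, the p53-induced subunit of ribonucleotide reductase, was at 1.87, 1.31 and 0.868 CPM in siNC and at 2.69, 3.70 and 3.02 CPM in siJmjd4-labelled libraries (log2 fold change 1.21, SE 0.36). Zmat3, an RNA-binding zinc finger protein, was at 6.43, 5.76 and 2.32 CPM in siNC and at 9.37, 10.9 and 14.4 CPM in siJmjd4-labelled libraries (1.26, SE 0.41). The groups did not overlap for either gene, as for 13 genes of this list and 40.2% of all tested genes, and neither passed the test. Among 14 tested genes of p53 and its control edgeR called 0, 3 had an unadjusted p under 0.05, DESeq2 called 1 and limma voom 2, all higher. Hipk2, a kinase that phosphorylates p53, had the smallest p there (1.52, SE 0.34, at 5.40 to 7.55 CPM in siNC and 11.7 to 27.0 CPM in siJmjd4-labelled libraries).

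Of all genes tested in the NRVCs edgeR called 0.00645%, 8.71% had an unadjusted p under 0.05, DESeq2 called 1.09% and limma voom 7.41%. The groups did not overlap for 40.2% of them. Of 22 tested genes of damage sensing edgeR called 0, DESeq2 called 0 and limma voom 1 higher. Atm, the kinase that answers double-strand breaks, was the 1 gene at an unadjusted p under 0.05 (log2 fold change 0.70, SE 0.23). The list had a median of 0.23 and no overlap between groups for 11 genes. Without siNC replicate 3 edgeR called 0, 7 had an unadjusted p under 0.05, against 23.9% of all genes, and the median was 0.13. With the length correction it was -0.08. Of 22 genes of strand break repair the count was 0 in edgeR, at an unadjusted p under 0.05, in DESeq2 and in limma voom, with a median of 0.03. Of 26 tested cell cycle genes edgeR called 0, 1 had an unadjusted p under 0.05, DESeq2 called 0 and limma voom 1 higher, and 13 had positive and 13 negative log2 fold changes. Among 13 other BCL2 family genes and 6 other inhibitors of cyclin-dependent kinases edgeR called 0, with 1 and 0 at an unadjusted p under 0.05, 0 in DESeq2, and 1 and 0 in limma voom. Among 14 relatives of the described genes edgeR, DESeq2 and limma voom called 0, and 1 had an unadjusted p under 0.05.

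The NRVC libraries held RNA of other cells as well. Summed over 10 fibroblast markers the level was 36354 to 44296 CPM in siNC and 43023 to 49715 CPM in siJmjd4-labelled libraries, with 9 of 10 log2 fold changes positive. Over the 7 cardiomyocyte markers with a row it was 12482 to 18581 against 9473 to 11926 CPM, with 6 of 7 negative. Macrophage markers summed to 454 to 703 against 463 to 493 CPM, endothelial markers to 124 to 188 against 164 to 188 CPM, mural markers to 2161 to 2326 against 1950 to 2103 CPM, and lymphocyte and neutrophil markers to 4.95 to 9.27 against 5.67 to 7.36 CPM, with Cd3e, Ms4a1 and Nkg7 at 0 in all 6 libraries. Of all tested genes edgeR called 0.00645%, 8.71% had an unadjusted p under 0.05, DESeq2 called 1.09% and limma voom 7.41%. In edgeR 0 genes of these lists were called, with 1 fibroblast, 1 cardiomyocyte, 2 endothelial, 1 mural, 0 macrophage and 0 lymphocyte or neutrophil markers at an unadjusted p under 0.05. DESeq2 called 0, and limma voom called 1 fibroblast marker higher, 1 cardiomyocyte marker higher and 1 lower, 2 endothelial markers lower and 1 mural marker lower. The part of these cells in the values of Trp53inp1 and Eda2r was not tested.

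The responses of the 2 systems were compared in 1 edgeR model of all 12 libraries, over 13489 genes paired by symbol. Phlda3 differed between them, with a log2 fold change of 1.74 in the hearts and -0.56 in the NRVCs, a difference of 2.30 (SE 0.48, adjusted p = 0.0383). It was the 1 gene of the 9 called higher in the hearts, where 1.33% of genes were, and 0 were called lower, where 0.341% were. Without flox replicate 3 and siNC replicate 3, 2 were called higher (Phlda3 and Bax) and 4 lower (Ccng1, Sesn1, Trp53inp1 and Eda2r), where 7.14% and 5.7% of 13654 genes were. The differences there were 2.04 for Phlda3 (SE 0.25), 0.93 for Bax (SE 0.25), -1.11 for Ccng1 (SE 0.23), -1.10 for Sesn1 (SE 0.20), -1.26 for Trp53inp1 (SE 0.28) and -1.98 for Eda2r (SE 0.54). Cdkn1a (0.21, 95% interval -0.56 to 0.98), Mdm2 (-0.20, -0.64 to 0.23) and Gadd45a (-0.34, -0.88 to 0.20) had intervals that included no difference. Species, age, tissue or culture, and the way Jmjd4 was targeted all differ between the systems and cannot be told apart in this comparison.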

How the data were processed

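Raw whole-number counts by gene symbol were deposited, in 1 table for hearts and 1 for NRVCs. Per the submitters' processing notes, which assign no roles, tools included edgeR 3.20.9, StringTie 1.3.4 and HISAT2 2.1.0, with builds mm10 and rn6. For read assignment and strand setting, the sources used here give nothing. Libraries held 57174654 to 82187009 counts. Columns were matched to samples through the labels.

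From these counts, each system was fitted on its own 6 libraries with edgeR 4.0.16 (R 4.3.3): filterByExpr, TMM scaling, a robust quasi-likelihood model with group alone, and Benjamini-Hochberg adjustment over all genes tested, two-sided, at 0.05. SEs come from the F statistic. CPM values use TMM-scaled totals. An exact permutation test of 3 against 3 was not run, its smallest p being 0.1. Alternatives were DESeq2 1.42.0, limma 3.58.1 voom with quality weights, other scalings and filters, a replicate block, a correction for transcript length (GENCODE M21, lowess span 0.3, log2 CPM with a prior count of 2) and left-out libraries. Within groups, library pairs had a chi-square of 26.1 to 1581 for each degree of freedom, far above sampling noise, and none was merged. The code was tested on simulated data.

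The genes, the lists and the tests were chosen with earlier results of these data known. Named were the 10 genes, Jmjd4, Esr1 and 1 gene that is not reported here, and from each list at most 4 genes with the smallest p, or those called. A selection of these is given, made after their values were seen, with genes called without the library that stood apart added. The 5 genes nearest to Cdkn1a were taken among genes with a mean of at least 1 CPM. Rat coordinates were not used here.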

Additional observations from a re-analysis of the deposited data

Results flagged for a closer look

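Phlda3 was singled out because its response differed between the 2 systems in the test of the difference itself, with a log2 fold change 2.30 higher in the hearts than in the NRVCs (edgeR, adjusted p = 0.0383, and 0.0017 without flox replicate 3 and siNC replicate 3). All 3 cKO hearts were above all 3 flox hearts. In the NRVCs siNC replicate 3 was at 2.13 times the mean of the other siNC libraries, and the groups overlapped.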

How the results depend on the processing

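In the hearts edgeR called 67 genes higher and 25 lower, of which 0 and 0 were among the 10 p53 targets. DESeq2's Wald test called 957 and 791 genes (1 and 2 of the 10), limma voom with quality weights 2164 and 1687 (3 and 2), the transcript length correction 605 and 554 (1 and 0), no filter 104 and 42, and scaling to total counts alone 20 and 0. Leaving out 1 library gave 0 to 813 genes higher and 0 to 560 lower, with 0 to 1 and 0 to 2 of the 10, the highest in each case without flox replicate 3 and 0 without any other library. Without flox replicate 3 and cKO replicate 2 the counts were 1793 and 1792 (2 and 2). In the NRVCs edgeR called 1 gene higher and 0 lower, with 0 of the p53 targets. DESeq2 called 136 and 32 (2 and 0 of the 9), limma voom 974 and 174 (2 and 0), and leaving out 1 library 0 to 77 and 0 to 13 (0 to 1 and 0), again highest without the control replicate 3. Leaving out siNC replicate 3 and siJmjd4 replicate 1, chosen after seeing the data, gave 1661 and 809 (2 and 0). For the difference between the systems, 180 genes higher and 46 lower in the hearts became 975 and 778 without both control libraries, and 1 and 0 of the p53 targets became 2 and 4. The cause of these shifts was not tested.

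Signs that turned in the hearts were those of Cdkn1a (-0.24 to 0.46 with scaling to total counts alone and to 0.12 without flox replicate 3, and -0.53 to 0.12 over single left-out libraries), Mdm2 (-0.16 to 0.44, total counts), Eda2r (-0.25 to 0.27, total counts) and Bax (0.16 to -0.081, -0.06 and -0.03 without flox replicate 1, flox replicate 2 or cKO replicate 2, and up to 0.83 without flox replicate 3). In the NRVCs they were those of Bax (-0.57 to 0.036 with the length correction) and Gadd45a (0.06 to -0.12 with limma voom, to -0.10 without siNC replicate 3, -0.10 to 0.20 over single left-out libraries, and to -0.16 without siNC replicate 3 and siJmjd4 replicate 1). Phlda3, Bbc3, Ccng1, Sesn1, Gadd45a and Trp53inp1 in the hearts, and Trp53inp1, Eda2r, Cdkn1a, Phlda3, Mdm2, Ccng1 and Sesn1 in the NRVCs, kept their sign in every setting run. Eda2r and Trp53inp1 have no NRVC value under a mean of at least 5 CPM.

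With the replicate number as a block edgeR called 0 genes in either system, with 1591 and 472 at an unadjusted p under 0.05. Same-numbered libraries did not deviate together in the NRVCs (correlations of -0.15 to -0.02) or for replicates 2 and 3 of the hearts (-0.48 and -0.33). For replicate 1 of the hearts the correlation was 0.357, beside 0.361 for cKO replicate 1 with flox replicate 2. Not every library went best with its own number, and the labels give no pairing.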

Other observations

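In each of the 2 control libraries that stood apart, some p53 targets were higher and others lower than in the rest of the group. Ccng1, Gadd45a and Mdm2 went in different directions in the 2 libraries. In flox replicate 3, relative to the mean of the other 2 flox hearts, Bax was at 2.78 times, Ccng1 at 2.35, Cdkn1a at 1.85, Gadd45a at 1.72, Phlda3 at 1.48, Sesn1 at 1.3, Mdm2 at 1.17, Eda2r at 0.672, Bbc3 at 0.625 and Trp53inp1 at 0.307 times. In siNC replicate 3 the values were 2.13 for both Bax and Phlda3, 2.08 for Cdkn1a, 1.02 for Sesn1, 0.809 for Ccng1, 0.778 for Mdm2, 0.695 for Gadd45a, 0.516 for Trp53inp1 and 0.337 for Eda2r. The genes with the longest transcripts, Trp53inp1 and Eda2r, were low in both libraries, and Bax, with the shortest, was high in both. Ccng1, with 3512 bases, was high in the heart library and not in the NRVC library, and Gadd45a, with 1223 bases, was high in the first and low in the second.

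The 5 genes with the pattern nearest to that of Cdkn1a, by root-mean-square distance between standardised log2 CPM over 6 libraries, were Alyref2 (0.093), Stmn2 (0.118), Ramp2 (0.149), Pdgfa (0.151) and Gtdc1 (0.154) in the hearts, among 13905 genes. The nearest of the described genes there was Bax, at 0.705 (rank 3420). In the NRVCs they were RGD1559909 (0.0315), Thra (0.0373), Cox19 (0.0377), Oaz1 (0.0406) and Yif1a (0.0409), among 13238 genes, with Bax at 0.119 (rank 353) and Phlda3 at 0.172 (rank 1021). All of these values share the same libraries, including the 1 that stood apart.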
